A study of Mus musculus with 12 samples.

Results

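The 10 genes described here are a list of cadherins and catenins, selected by symbol among the 47642 genes listed for the series: the 6 cadherins *Cdh1*, *Cdh2*, *Cdh3*, *Cdh6*, *Cdh11* and *Cdh16* and the 4 catenins *Ctnna1*, *Ctnnb1*, *Ctnnd1* and *Jup*. Their mRNA was measured by RNA-seq in 12 libraries of mIMCD3 cells, an immortalised mouse line from the inner medullary collecting duct that carries the SV40 early region in all 3 genotypes. Wild-type cells (Wt), *Pkd1*-/- cells and *Pkd2*-/- cells gave 4 libraries each, from separate dishes harvested 4 days after full confluency. Of 6 dishes grown per genotype, the authors sequenced the 4 whose RNA had the highest absorbance ratios, a measure of purity. Each knockout is 1 clone: *Pkd1*-/- was made with CRISPR by deleting almost the whole gene on chromosome 17, and *Pkd2*-/- with TALENs by deleting exons 4 to 9 on chromosome 5. The design asks which transcripts differ when either of the 2 genes mutated in autosomal dominant polycystic kidney disease is missing. P-values below measure the spread between the sequenced dishes, and clone and genotype cannot be told apart.

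Classical cadherins hold neighbouring epithelial cells together at adherens junctions. Their extracellular repeats bind cadherins on the adjacent cell, and their cytoplasmic tail binds β-catenin (*Ctnnb1*) or plakoglobin (*Jup*) and, nearer the membrane, p120-catenin (*Ctnnd1*), which keeps the cadherin at the surface. α-Catenin (*Ctnna1*) links β-catenin to actin. E-cadherin (*Cdh1*) and the kidney-specific *Cdh16* are typical of collecting duct epithelium, *Cdh6* and N-cadherin (*Cdh2*) of the proximal nephron and its precursors, and *Cdh11* of mesenchyme. *Cdh16* has a short tail without the catenin-binding region.

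The libraries held between 23200000 and 30300000 reads counted on genes, estimated from the spacing of the deposited values, and no pair was identical. *Pkd1* was at 682 to 883 normalized counts in Wt and 30 to 49 in *Pkd1*-/-. *Pkd2* was at 3438 to 4467 in Wt and 3855 to 4135 in *Pkd2*-/-. This gene-level value includes the exons outside the deletion and therefore does not check that label. Of 12 collecting duct markers, 7 averaged 10 or more normalized counts, with *Pax2*, *Pax8*, *Hoxb7* and *Tfcp2l1* among them, whereas the water channel genes *Aqp2* and *Aqp4* were at 0 in every library. Among the 7, *Gata3* was at 176 to 248 in Wt, 42 to 56 in *Pkd1*-/- and 294 to 430 in *Pkd2*-/-, and the sodium channel gene *Scnn1g* at 876 to 988, 249 to 347 and 243 to 265. All 6 markers of simple epithelium were above that level, and none of 4 endothelial markers was, with VE-cadherin (*Cdh5*) at 0 throughout. The keratin gene *Krt19* was at 4030 to 4850 in Wt, 1278 to 1418 in *Pkd1*-/- and 1392 to 1456 in *Pkd2*-/-. Of 4 macrophage markers 2 averaged 10 or more; their sum was 893 to 1000 in Wt, 428 to 652 in *Pkd1*-/- and 732 to 826 in *Pkd2*-/-, mostly *Csf1r*, with *Adgre1* at 0 throughout.

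*Cdh1*, *Ctnnb1*, *Ctnna1* and *Jup* were abundant in all 3 genotypes and *Ctnnd1* less so. The differences between the genotypes lay mainly in 3 less uniform cadherins. *Cdh2* was 2.85-fold higher in *Pkd1*-/- and 3.87-fold higher in *Pkd2*-/- than in Wt (ratios of means, n = 4 each). *Cdh6* went in opposite directions, 2.57-fold lower in *Pkd1*-/- and 9.19-fold higher in *Pkd2*-/-. P-cadherin (*Cdh3*) was 1.83-fold lower in *Pkd2*-/-, and its change of -6.95% in *Pkd1*-/- did not pass the test. *Cdh1* and the 4 catenins differed from Wt by at most 21.6% in either clone.

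Counted over all members, 1 was higher and 4 were lower in *Pkd1*-/- than in Wt, and the remaining 5 did not pass an adjusted p of 0.05 (limma on log2 of the normalized count plus 1, adjusted over all 18552 genes tested). Over all genes tested, 13.6% were called higher and 13.5% lower in that comparison. In *Pkd2*-/-, 7 members were higher, 2 were lower and 1 did not pass, against 20% higher and 22.3% lower over all genes. Between the clones, 6 members were higher and 1 was lower in *Pkd2*-/- than in *Pkd1*-/-, against 21.9% and 24.3% of all genes. These shares include genes averaging as little as 1 normalized count. With only genes averaging 10 or more tested, which leaves out *Cdh11*, 6, 8 and 7 members were called in the same order of comparisons. Beside them, 4854, 7454 and 8057 of 13703 genes were called. With a log2 fold change of at least 1 also required, 2 members passed in each comparison with Wt, *Cdh2* and *Cdh6*, and 1, *Cdh6*, between the clones; the share over all genes was 6.24% in *Pkd1*-/-, 9.62% in *Pkd2*-/- and 11.8% between the clones. The median log2 fold change of the members was -0.04 in *Pkd1*-/- and 0.19 in *Pkd2*-/-, beside 0.01 and -0.01 over all genes tested.

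**Figure D1:**
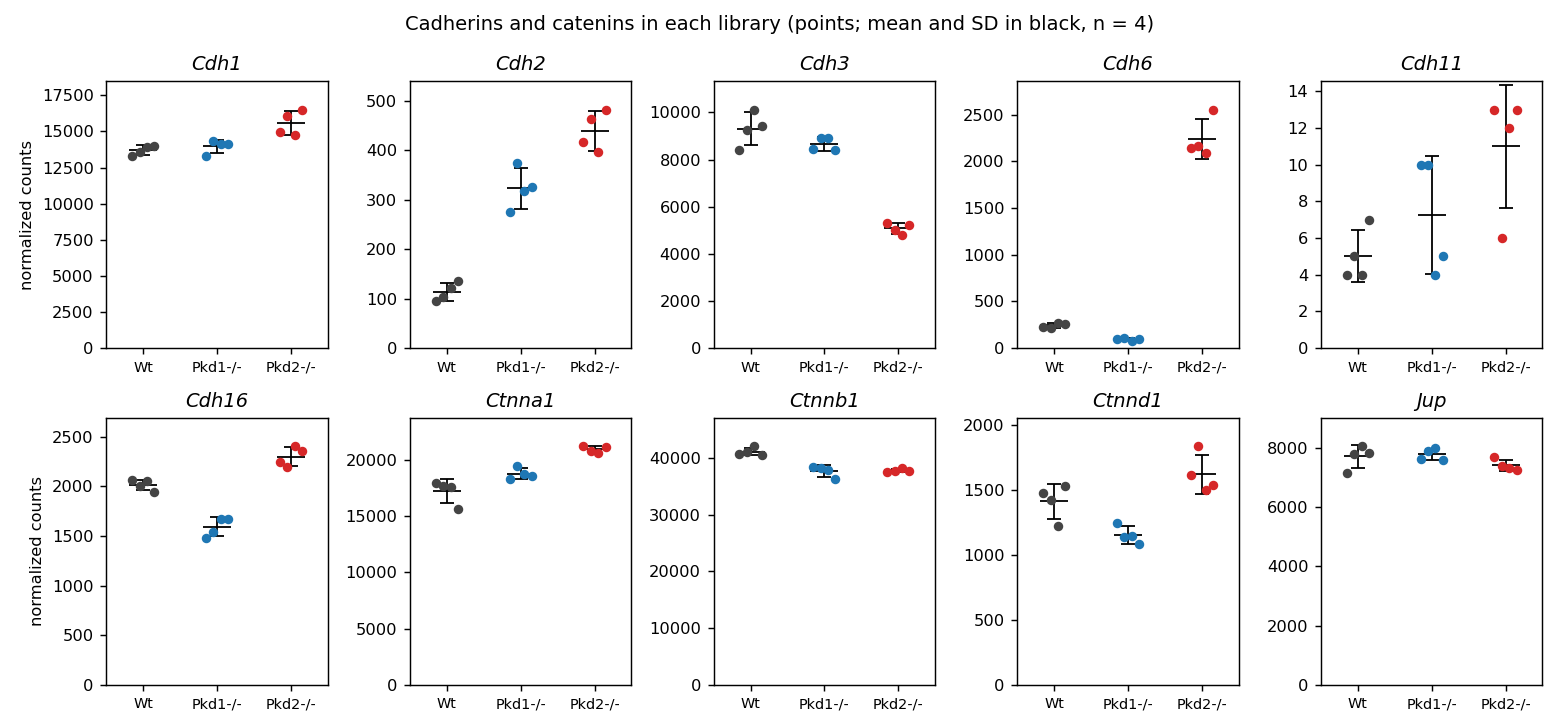
Normalized counts of the 10 members in each of the 12 libraries (points), with the mean and SD of the 4 libraries of a genotype in black; every vertical axis starts at 0 and has its own range. The *Cdh2* points of both clones lie above all Wt points, *Cdh6* is low in *Pkd1*-/- and high in *Pkd2*-/-, and *Jup* overlaps in all 3 genotypes.

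Levels of different genes were compared per kilobase of annotated exon. In Wt, the order was *Ctnnb1* at 7921 ± 129 normalized counts per kb (SD, n = 4), *Cdh1* at 2994 ± 73.0, *Ctnna1* at 2682 ± 167, *Cdh3* at 2125 ± 159, *Jup* at 1198 ± 59.8, *Cdh16* at 532 ± 13.6, *Ctnnd1* at 193 ± 18.7, *Cdh6* at 27.0 ± 2.80, *Cdh2* at 14.1 ± 2.23 and *Cdh11* at 0.562 ± 0.159. No neighbours in this Wt order had overlapping ranges. In *Pkd1*-/- *Cdh2* stood above *Cdh6*, at 40.0 ± 5.09 against 10.5 ± 1.17 per kb. In *Pkd2*-/- *Cdh6* rose to the level of *Ctnnd1*, at 248 ± 23.4 against 221 ± 20.5, with overlapping ranges. *Cdh3* fell there to the level of *Jup*, at 1161 ± 53.3 against 1151 ± 29.4 per kb, and *Cdh1* and *Ctnna1* overlapped in both clones.

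*Cdh1*, which encodes E-cadherin, lies at chr8:106603351-106670246 (GRCm38, plus strand). Its normalized counts were 13291, 13555, 13944 and 13995 in the Wt libraries, 13319, 14334, 14101 and 14105 in *Pkd1*-/- and 14969, 16068, 14745 and 16508 in *Pkd2*-/-. All *Pkd2*-/- libraries were above all others, while Wt and *Pkd1*-/- overlapped. The log2 fold change was 0.03 ± 0.05 (SE) in *Pkd1*-/-, with a 95% interval from -0.07 to 0.12 and an adjusted p of 0.722. In *Pkd2*-/- it was 0.18 ± 0.05, with an adjusted p of 0.00296, and under quantile normalization it was 0.08, with an adjusted p of 0.195.

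*Cdh3* encodes P-cadherin and lies upstream of *Cdh1* on the same strand, at chr8:106510891-106557297, with a gap of 46.1 kb between the genes. It was at 8428, 9275, 10120 and 9446 normalized counts in Wt, at 8436, 8920, 8912 and 8410 in *Pkd1*-/- and at 5313, 4992, 4805 and 5242 in *Pkd2*-/-. The highest *Pkd2*-/- library was thus below the lowest of the other 8. The log2 fold change was -0.87 ± 0.05 in *Pkd2*-/- (adjusted p = 1.57e-10) and -0.10 ± 0.05 in *Pkd1*-/- (adjusted p = 0.181). Without Wt replicate 1 the latter became -0.15, with an adjusted p of 0.0369. Per kb, *Cdh1* exceeded *Cdh3* by 1.41 ± 0.0784 in Wt, 1.54 ± 0.0438 in *Pkd1*-/- and 2.94 ± 0.168 in *Pkd2*-/-.

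*Cdh2*, the N-cadherin gene on chromosome 18, was the member that rose in both clones by more than the fold threshold. Its normalized counts were 95, 103, 121 and 135 in Wt, 275, 375, 317 and 325 in *Pkd1*-/- and 416, 464, 396 and 482 in *Pkd2*-/-. The 3 ranges were separate, and the level in the clones was still far below that of *Cdh1*. The log2 fold change against Wt was 1.51 ± 0.12 in *Pkd1*-/- (adjusted p = 1.19e-08) and 1.95 ± 0.12 in *Pkd2*-/- (adjusted p = 1.33e-10), and between the clones it was 0.45 ± 0.12 (adjusted p = 0.00407). Both comparisons with Wt use the same Wt libraries. Values for markers of other cell types stand beside this rise: the summed normalized counts of 6 fibroblast markers were 29 to 55 in Wt, 89 to 103 in *Pkd1*-/- and 15 to 97 in *Pkd2*-/-, with *Pdgfra* between 0 and 2 and *Lum* between 0 and 1. Of these 6 markers, 2 averaged 10 or more. Most of the higher sum in *Pkd1*-/- was the collagen gene *Col3a1*, at 3 to 7 in Wt, 62 to 69 in *Pkd1*-/- and 0 to 42 in *Pkd2*-/-. The sum over 6 proximal tubule markers was 692 to 790 in Wt, 584 to 672 in *Pkd1*-/- and 1017 to 1499 in *Pkd2*-/-, with *Slc34a1* at 0 in all libraries. Only 2 of these markers, *Lrp2* and *Aqp1*, averaged 10 or more, and they made up almost all of the sum. Within it the endocytic receptor gene *Lrp2* was at 474 to 555 in Wt, 25 to 63 in *Pkd1*-/- and 738 to 1217 in *Pkd2*-/-, the directions of *Cdh6*, and the water channel gene *Aqp1* was at 204 to 245, 540 to 619 and 259 to 277. Their part in the result was not tested, and in bulk RNA a change in the number of cells with a transcript cannot be told apart from a change in RNA per cell.

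*Cdh6* encodes K-cadherin, a type II cadherin of the developing nephron, and lies on the minus strand at chr15:13028701-13173675. It was at 227, 218, 271 and 259 normalized counts in Wt, at 94, 106, 81 and 99 in *Pkd1*-/- and at 2148, 2170, 2092 and 2554 in *Pkd2*-/-. The 3 genotypes were separate, with *Pkd1*-/- below and *Pkd2*-/- far above Wt. The log2 fold change was -1.35 ± 0.10 in *Pkd1*-/- (adjusted p = 3.83e-09), 3.20 ± 0.10 in *Pkd2*-/- (adjusted p = 7.1e-15) and 4.55 ± 0.10 between the clones (adjusted p = 3.92e-17). The 250 bases before its annotated start, chr15:13173676-13173925 on the minus strand of GRCm38, are shown because, of the 10 members, this gene had the largest log2 fold change between the clones. The sequence is from RefSeq (GRCm38.p6), in a table of promoters that was matched by symbol for 4 of the 10 members; capitals mark the match to the general E-box.

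Cdh6 upstream: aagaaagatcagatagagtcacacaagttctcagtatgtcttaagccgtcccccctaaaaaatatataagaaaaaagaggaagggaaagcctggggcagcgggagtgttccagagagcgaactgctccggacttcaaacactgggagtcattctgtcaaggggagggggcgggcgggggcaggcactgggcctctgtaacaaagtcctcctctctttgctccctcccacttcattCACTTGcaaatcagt

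The general E-box CANNTG, read on both strands because it is its own reverse complement, occurred 1 time in these 250 bases, and 66.2% of 32851 upstream windows of the same length held at least 1. The form CAGGTG, bound by Snail and Zeb factors and a special case of CANNTG, occurred 0 times on either strand, as against 17.2% of windows with a match. The TCF and LEF core CTTTGA occurred 0 times on either strand, with a match in 13.8% of windows. The GC content was 51.2%, beside a median of 52.4% over all windows. A match is a description of letters in this window only.

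*Cdh16*, the kidney-specific cadherin at chr8:104601911-104624396, shared the directions of *Cdh6* on a smaller scale. It was at 2059, 2006, 2051 and 1947 normalized counts in Wt, at 1482, 1544, 1671 and 1671 in *Pkd1*-/- and at 2245, 2193, 2402 and 2353 in *Pkd2*-/-. The ranges did not overlap. The log2 fold change was -0.34 ± 0.05 in *Pkd1*-/- (adjusted p = 4.64e-05) and 0.19 ± 0.05 in *Pkd2*-/- (adjusted p = 0.00591). *Cdh11*, the mesenchymal cadherin, was at 4 to 7 normalized counts in Wt, 4 to 10 in *Pkd1*-/- and 6 to 13 in *Pkd2*-/-. Its log2 fold change of 0.97 ± 0.37 in *Pkd2*-/- had an adjusted p of 0.0438, which rose to between 0.0501 and 0.0807 with a pseudocount of 0.5, upper-quartile scaling, a replicate block or no filter on low values and to between 0.0699 and 0.11 without Wt replicate 1, 2 or 3 or *Pkd2*-/- replicate 1, 3 or 4. At this level its direction rested on a few reads.

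**Figure D2:**
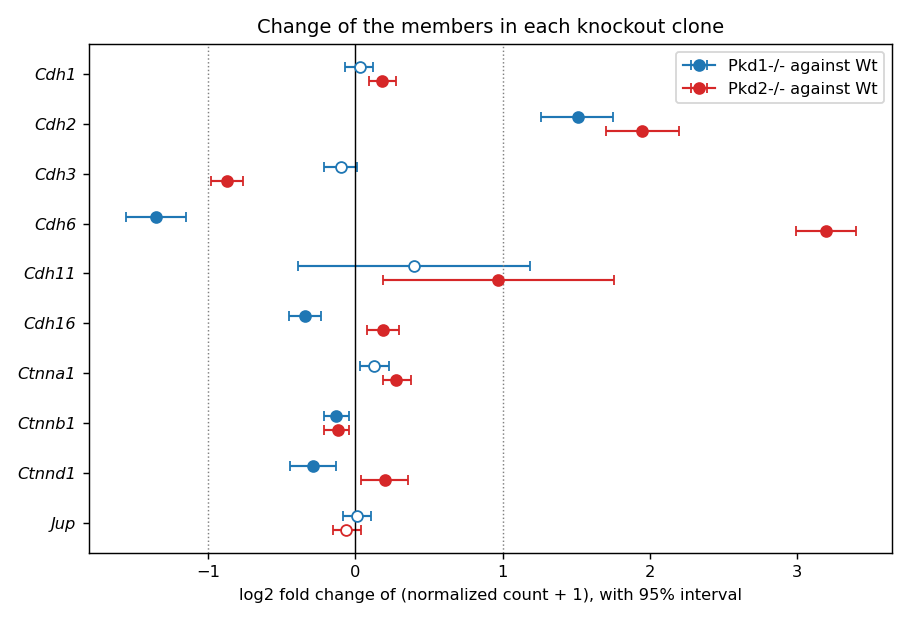
Log2 fold change of each member in *Pkd1*-/- (blue) and *Pkd2*-/- (red) against Wt, with its 95% interval; filled points passed an adjusted p of 0.05 and dotted lines mark a log2 fold change of 1 in either direction. *Cdh6* is at -1.35 and 3.20, *Cdh2* at 1.51 and 1.95, and the catenins stay within the dotted lines.

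The catenins differed by small amounts, around high levels for *Ctnnb1*, *Ctnna1* and *Jup* and a lower level for *Ctnnd1*. *Ctnnb1*, which encodes β-catenin, was at 40738, 41129, 42063 and 40571 normalized counts in Wt, 38465, 38250, 37891 and 36231 in *Pkd1*-/- and 37538, 37765, 38265 and 37709 in *Pkd2*-/-. Every knockout library was below every Wt library. The change was -8.31% in *Pkd1*-/- (log2 fold change -0.13 ± 0.04, adjusted p = 0.0276) and -8.04% in *Pkd2*-/- (-0.12 ± 0.04, adjusted p = 0.0223). Both calls were lost without the filter on low values, with adjusted p of 0.0746 and 0.0618, and without Wt replicate 3, with adjusted p of 0.0814 and 0.068. The *Pkd1*-/- call was also lost under upper-quartile scaling and quantile normalization (adjusted p of 0.0626 and 0.161) and without *Pkd1*-/- replicate 3 or 4 (adjusted p of 0.0597 and 0.089) and the *Pkd2*-/- call without *Pkd2*-/- replicate 1 (adjusted p of 0.0503). The antisense neighbour *Ulk4*, which overlaps the span of *Ctnnb1*, had a mean of 358 normalized counts.

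*Ctnna1*, the α-catenin gene on chromosome 18, was at 17959, 17718, 17613 and 15641 normalized counts in Wt, 18316, 19512, 18737 and 18594 in *Pkd1*-/- and 21222, 20823, 20589 and 21162 in *Pkd2*-/-. The 3 ranges were separate, and Wt replicate 4 stood below the other Wt libraries. In *Pkd2*-/- the log2 fold change was 0.28 ± 0.05 (adjusted p = 6.74e-05). In *Pkd1*-/- it was 0.13 ± 0.05 with an adjusted p of 0.0536, and without Wt replicate 1 it was 0.15 with an adjusted p of 0.0364, and without Wt replicate 4 it was 0.08. It also passed with only genes averaging 10 or more tested, under upper-quartile scaling and with a replicate block, with adjusted p of 0.0413, 0.0426 and 0.0468. Per kb, the ratio of *Ctnna1* to *Cdh1* was 0.897 ± 0.0722 in Wt, 0.958 ± 0.0191 in *Pkd1*-/- and 0.960 ± 0.0491 in *Pkd2*-/-.

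*Ctnnd1*, which encodes p120-catenin, moved in the directions of *Cdh6* and *Cdh16*. Its normalized counts were 1474, 1417, 1217 and 1531 in Wt, 1247, 1137, 1147 and 1084 in *Pkd1*-/- and 1612, 1833, 1500 and 1533 in *Pkd2*-/-. Each clone overlapped Wt, but the clones did not overlap each other. The log2 fold change was -0.29 ± 0.07 in *Pkd1*-/- (adjusted p = 0.00722), 0.20 ± 0.07 in *Pkd2*-/- (adjusted p = 0.0375) and 0.49 ± 0.07 between the clones (adjusted p = 2.46e-05). The *Pkd2*-/- call against Wt was lost without Wt replicate 2 or 3 (adjusted p of 0.0611 and 0.159) and without *Pkd2*-/- replicate 1 or 2 (adjusted p of 0.0646 and 0.154). It was also lost with no filter, under either other scaling and in the fit of 2 genotypes only, with adjusted p between 0.0501 and 0.0768.

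*Jup*, which encodes plakoglobin, a catenin of both adherens junctions and desmosomes, passed in none of the 3 comparisons. Its normalized counts were 7160, 7796, 8052 and 7844 in Wt, 7619, 7905, 7992 and 7599 in *Pkd1*-/- and 7682, 7374, 7321 and 7254 in *Pkd2*-/-. All 3 ranges overlapped. The 95% interval of the log2 fold change ran from -0.08 to 0.11 in *Pkd1*-/- and from -0.15 to 0.04 in *Pkd2*-/-; under quantile normalization the *Pkd2*-/- value was -0.17, with an adjusted p of 0.00398. The ratio of *Ctnnb1* to *Jup* per kb was 6.62 ± 0.293 in Wt, 6.01 ± 0.173 in *Pkd1*-/- and 6.33 ± 0.191 in *Pkd2*-/-.

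The balance of E- and N-cadherin was measured as the ratio of *Cdh1* to *Cdh2*. Per kb of exon, the ratio was 247, 232, 203 and 183 in the Wt libraries. It was 85.4, 67.4, 78.4 and 76.5 in *Pkd1*-/- and 63.5, 61.1, 65.7 and 60.4 in *Pkd2*-/-. E-cadherin mRNA therefore exceeded N-cadherin mRNA in every library, by a smaller factor in the clones, and the 3 genotypes did not overlap. The log2 ratio of normalized counts (with 1 added) was 6.92 ± 0.19 (SD, n = 4) in Wt, 5.44 ± 0.14 in *Pkd1*-/- and 5.15 ± 0.05 in *Pkd2*-/-. The differences were -1.48 for *Pkd1*-/- against Wt, -1.77 for *Pkd2*-/- against Wt and -0.29 for *Pkd2*-/- against *Pkd1*-/-. Each had p = 0.0286 in a two-sided exact permutation test and 0.0286 after adjustment over the 3 comparisons, the smallest p that 4 against 4 libraries allow. In *Pkd1*-/- *Cdh1* contributed 0.03 and *Cdh2* 1.51 on the log2 scale, and in *Pkd2*-/- *Cdh1* contributed 0.18 and *Cdh2* 1.95, so that the lower ratio followed the higher *Cdh2* level.

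Taken as a pool per kb of exon, the 6 cadherins summed to 5693 ± 225 normalized counts per kb in Wt, 5502 ± 164 in *Pkd1*-/- and 5475 ± 230 in *Pkd2*-/-, with overlapping ranges. *Cdh1* made up 52.6% ± 1.02 of the pool in Wt, 55.5% ± 0.492 in *Pkd1*-/- and 62.2% ± 1.13 in *Pkd2*-/-. *Cdh3* made up 37.3% ± 1.35, 35.9% ± 0.707 and 21.2% ± 0.924 in the same order. *Cdh6* went from 0.474% ± 0.0352 in Wt to 0.191% ± 0.0214 in *Pkd1*-/- and 4.53% ± 0.254 in *Pkd2*-/-, whereas *Cdh2* went from 0.247% ± 0.0324 to 0.727% ± 0.0748 and 0.994% ± 0.0522. In *Pkd2*-/- the *Cdh6* share was thus larger than the *Cdh2* share, and in *Pkd1*-/- it was smaller. The 4 catenins summed to 11994 ± 246 per kb in Wt, 11554 ± 249 in *Pkd1*-/- and 11917 ± 22.3 in *Pkd2*-/-.

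**Figure D3:**
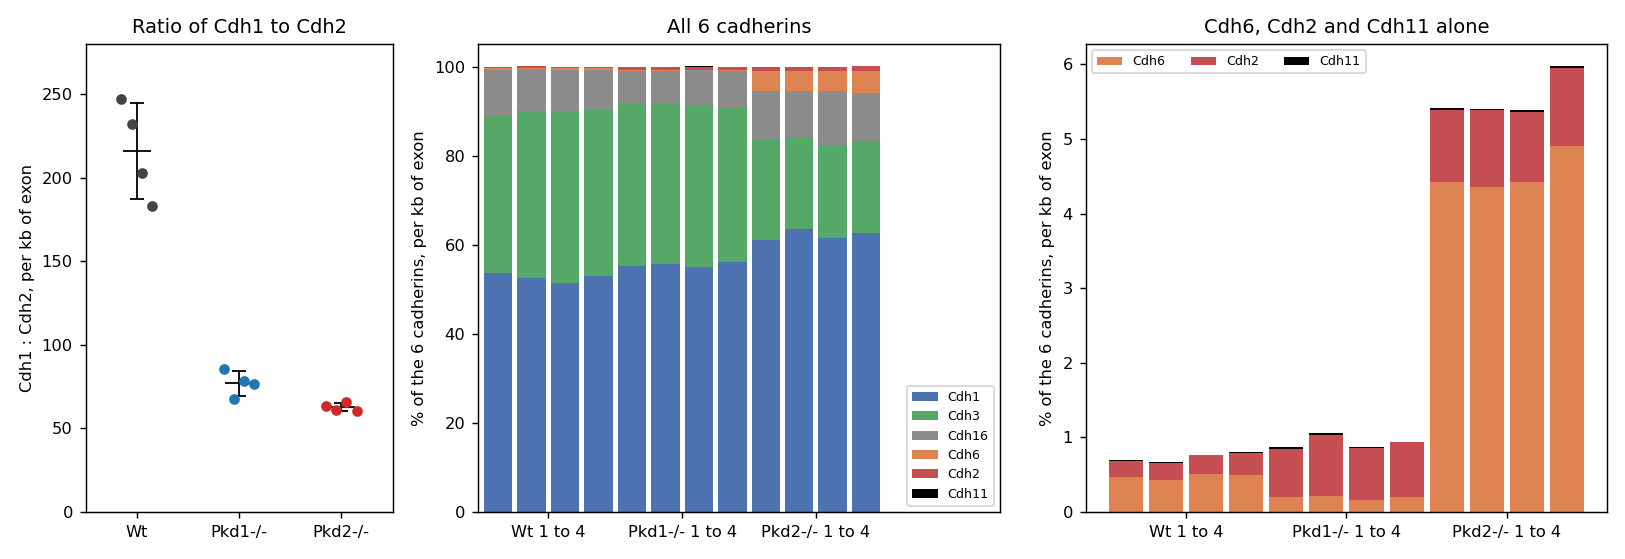
Left, ratio of *Cdh1* to *Cdh2* per kb of exon in each library, with mean and SD (n = 4). Middle and right, share of each cadherin in the summed level of the 6 cadherins per kb, for each library, first for all 6 and then for *Cdh6*, *Cdh2* and *Cdh11* alone on a smaller scale. The ratio is 183 to 247 in Wt and 60.4 to 65.7 in *Pkd2*-/-, where *Cdh3* takes 21.2% and *Cdh6* 4.53% of the pool.

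The neighbours of the members on the chromosome were compared with the members themselves, over genes within 1 Mb that averaged 10 or more normalized counts. Around *Cdh6*, 5 such genes had log2 fold changes between -0.01 and 0.15 in *Pkd2*-/- and between 0.02 and 0.18 in *Pkd1*-/-, beside 3.20 and -1.35 for *Cdh6*. Around *Cdh3*, 49 genes had a median of -0.08 and a range from -0.91 to 1.34 in *Pkd2*-/-. Of these, 10 were called higher and 16 lower, against 20% and 22.3% of all genes tested. *Cdh3* at -0.87 was within the range of its neighbours, near its lower end. Near *Cdh2* there were 2 such genes, at -0.21 and 0.06 in *Pkd2*-/- and at 0.17 and 0.28 in *Pkd1*-/-. Around *Ctnnd1*, 16 genes had a median of 0.53 and a range from -4.32 to 1.01 in *Pkd2*-/-, beside 0.20 for *Ctnnd1* itself. Of these, 12 were called higher and 2 lower, against 20% and 22.3% of all genes tested. In *Pkd1*-/- the same genes had a median of 0.01 and a range from -0.4 to 0.74, beside -0.29 for *Ctnnd1*. *Ctnnd1* was thus within the range of its neighbours in both clones, and that range was wide in *Pkd2*-/-. *Cdh6* was outside the range of its 5 neighbours in both clones. *Cdh2* was above both of its neighbours, *Gm10036* and *Gm7665*, but 2 genes are too few to describe its surroundings.

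**Figure D4:**
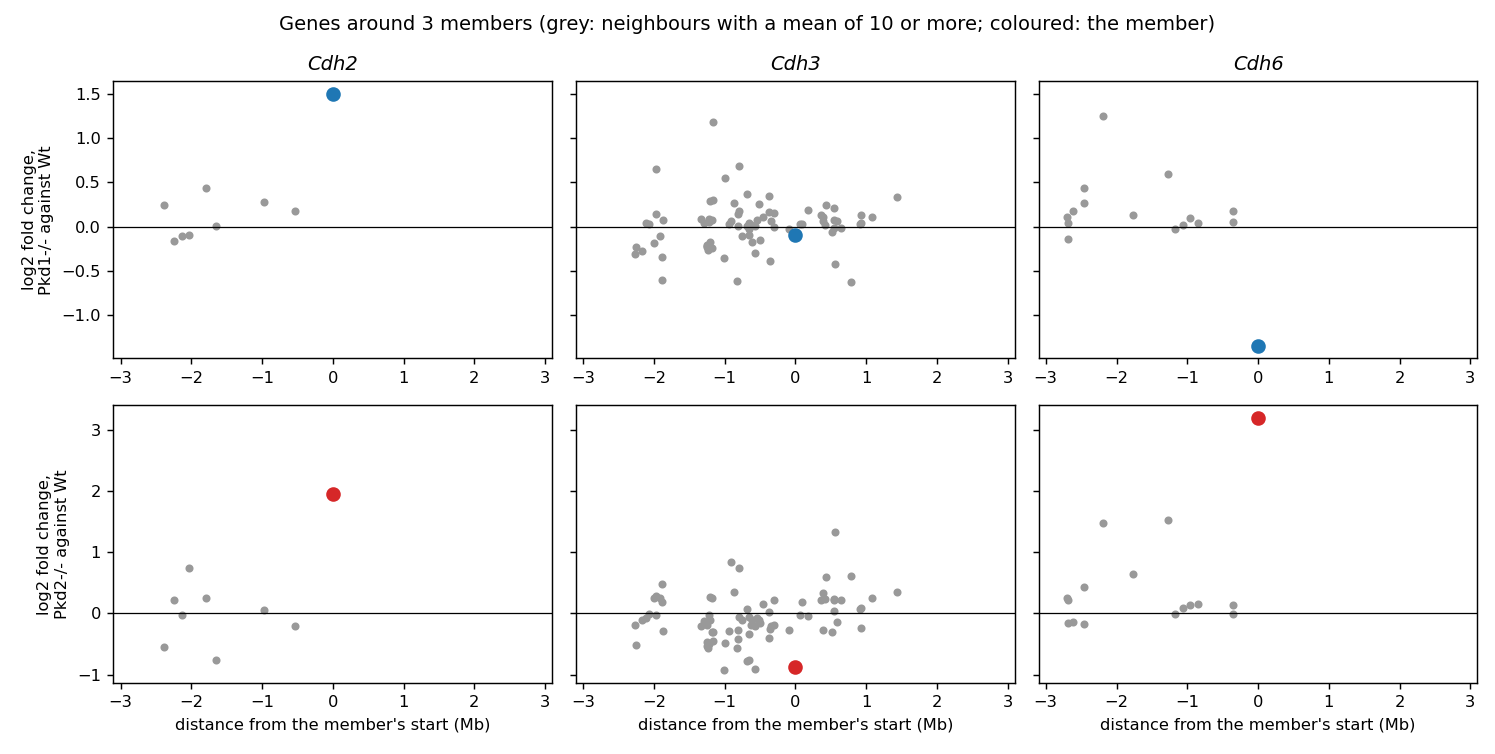
Log2 fold change in *Pkd1*-/- (top) and *Pkd2*-/- (bottom) against Wt of *Cdh2*, *Cdh3* and *Cdh6* (coloured) and of genes averaging 10 or more normalized counts within 3 Mb of their start (grey), by distance from that start. *Cdh6* lies apart from its neighbours in both rows, and *Cdh2* at 1.51 and 1.95 lies above its neighbours.

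Among 16 other cadherins, 8 reached the mean of 1 normalized count needed for testing. In *Pkd1*-/-, 7 of these were higher and 0 were lower; *Cdh7*, *Cdh9* and *Cdh19* reached that mean through the *Pkd1*-/- libraries alone, so their calls follow in part from the filter. In *Pkd2*-/-, 1 of the 8 was higher and 2 were lower, and 5 in all passed under quantile normalization. Over all genes tested, 13.6% were called higher and 13.5% lower in *Pkd1*-/-, and 20% higher and 22.3% lower in *Pkd2*-/-. The median log2 fold change of the 8 was 2.19 in *Pkd1*-/- and -0.25 in *Pkd2*-/-. With genes at or below 3 counts in a whole genotype set against 3 counts, and leaving out those at or below it in both, it was 1.74 over 8 genes and 0.18 over 5. Both *Pkd1*-/- medians include *Cdh7*, *Cdh9* and *Cdh19* and so also follow in part from the filter, whereas the 0.18 leaves these genes out. *Cdh7* was at 0, 0, 0 and 1 in Wt, 37, 25, 31 and 42 in *Pkd1*-/- and 0 in all *Pkd2*-/- libraries. *Cdh10*, a type II cadherin of the nervous system, was at 20, 17, 24 and 21 in Wt, 124, 131, 95 and 107 in *Pkd1*-/- and 0 in all *Pkd2*-/- libraries. Its log2 fold change in *Pkd1*-/- was 2.42 ± 0.26 (adjusted p = 6.84e-07), and in *Pkd2*-/- it was at least 6.83-fold lower than in Wt, with 3 counts per library as the floor.

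*Cdh18* was at 4, 12, 9 and 7 normalized counts in Wt, 36, 63, 46 and 41 in *Pkd1*-/- and 0, 0, 2 and 0 in *Pkd2*-/-. It was higher in *Pkd1*-/- by a log2 fold change of 2.45 ± 0.42 (adjusted p = 0.00017), and was lower in *Pkd2*-/- (adjusted p = 3.31e-05). *Cdh17*, an intestinal cadherin, was at 20 to 27 in Wt and 33 to 65 in *Pkd1*-/-, with an adjusted p of 0.00193. *Cdh19* and *Cdh24*, named after their values were seen, were at 0 to 1 and 232 to 334 in Wt and at 11 to 24 and 444 to 515 in *Pkd1*-/-. *Cdh13*, which encodes the membrane-anchored T-cadherin, was the 1 gene of the list higher in *Pkd2*-/-, at 213 to 299 beside 107 to 142 in Wt (log2 fold change 1.05 ± 0.13, adjusted p = 1.86e-06). *Cdh9*, *Cdh10* and *Cdh18* lie on chromosome 15 with *Cdh6*: the first 3 were at 0 to 2 normalized counts in all *Pkd2*-/- libraries, in which *Cdh6* was at its highest. *Cdh9* was at 0 to 2 in Wt as well, and *Cdh12*, on the same chromosome, was at 0 to 4 over all libraries.

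Of 7 other catenins and p120 relatives, 5 were tested, with 1 higher and 2 lower in *Pkd1*-/- and 1 higher and 3 lower in *Pkd2*-/-. *Ctnnbip1*, an inhibitor of β-catenin binding to TCF factors, was named after its values were seen and had log2 fold changes of 0.34 ± 0.07 in *Pkd1*-/- (adjusted p = 0.0008) and -0.35 ± 0.07 in *Pkd2*-/- (adjusted p = 0.000429). Of 18 adherens junction partners, 17 were tested, with 3 higher and 6 lower in *Pkd1*-/- and 7 higher and 5 lower in *Pkd2*-/-. For both lists, the shares over all genes were 13.6% higher and 13.5% lower in *Pkd1*-/-, and 20% and 22.3% in *Pkd2*-/-. The nectin gene *Nectin4* was at 18, 10, 32 and 7 in Wt and 28, 51, 43 and 31 in *Pkd1*-/- (log2 fold change 1.32 ± 0.37, adjusted p = 0.0118), and these ranges overlapped. The median log2 fold change of the partners was -0.03 in *Pkd1*-/- and 0.11 in *Pkd2*-/-.

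The desmosome, the other cadherin-based junction, gave 7 tested genes of 12, of which 1 was higher and 4 were lower in *Pkd1*-/- and 2 were higher and 2 lower in *Pkd2*-/-. The shares over all genes were 13.6% higher and 13.5% lower in *Pkd1*-/-, and 20% and 22.3% in *Pkd2*-/-. *Dsp*, which encodes the plaque protein desmoplakin, was at 2848 to 3288 normalized counts in Wt, 576 to 735 in *Pkd1*-/- and 6936 to 8573 in *Pkd2*-/-, the same directions as *Cdh6*. Its log2 fold change was -2.16 ± 0.08 in *Pkd1*-/- (adjusted p = 1.79e-13) and 1.33 ± 0.08 in *Pkd2*-/- (adjusted p = 6.33e-11). The desmosomal cadherins *Dsg2* and *Dsc2* were lower in *Pkd1*-/-, by 2.61-fold and 2.37-fold. *Jup*, which binds both, did not pass in that clone.

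β-Catenin outside junctions is degraded after phosphorylation by a complex of *Apc*, *Axin1* and *Gsk3b*, or acts with TCF factors in the nucleus. Of 10 turnover genes, 2 were higher and 0 lower in *Pkd1*-/-, and 2 were higher and 2 lower in *Pkd2*-/-. The *Pkd1*-/- count was 1 whenever a library was left out, except without *Pkd1*-/- replicate 2, when it was 0, and without *Pkd1*-/- replicate 3, when it was 2. Of 13 tested partners and targets (15 listed), 3 were higher and 4 lower in *Pkd1*-/-, and 5 were higher and 4 lower in *Pkd2*-/-. Beside the counts of both lists, 13.6% of all genes were higher and 13.5% lower in *Pkd1*-/-, and 20% and 22.3% in *Pkd2*-/-. *Tcf7l1*, a TCF factor that mostly acts as a repressor, was at 948, 986, 950 and 1056 in Wt, 1321, 1279, 1362 and 1336 in *Pkd1*-/- and 131, 123, 111 and 147 in *Pkd2*-/-, a log2 fold change of -2.94 ± 0.08 in *Pkd2*-/- (adjusted p = 8.65e-16). *Tcf7* was at 118 to 171 in Wt and 291 to 352 in *Pkd1*-/- (1.11 ± 0.11, adjusted p = 3.4e-07). It was also higher in *Pkd2*-/-, at 194 to 223 (0.5 ± 0.11, adjusted p = 0.0012). Among the targets, named after their values were seen, *Myc* was 1.69-fold (adjusted p = 3.07e-06), *Znrf3* 1.57-fold (adjusted p = 1.01e-05) and *Ccnd1* 1.86-fold (adjusted p = 0.0154) higher in *Pkd2*-/- than in Wt. None of them passed in *Pkd1*-/-, with adjusted p of 0.684, 0.97 and 0.54. *Rnf43* was 1.16-fold higher in *Pkd2*-/- (adjusted p = 0.0297). *Lgr5*, at 0 to 3 normalized counts, and *Lef1*, at 1 to 12, were called in neither clone. *Nkd1* and *Sp5* were at 0 throughout, and the turnover gene *Axin2*, itself a target, was at 0 to 4 normalized counts in every library.

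Of 6 transcription factors listed as repressors of E-cadherin (*Cdh1*), 5 were tested. In *Pkd1*-/-, 3 were higher and 0 lower, against 13.6% and 13.5% of all genes. In *Pkd2*-/-, 1 was higher and 2 were lower, against 20% and 22.3% of all genes. *Twist1*, a mesenchymal transcription factor, was at 4, 3, 9 and 10 normalized counts in Wt, 91, 102, 88 and 60 in *Pkd1*-/- and 0, 0, 1 and 0 in *Pkd2*-/-, with a log2 fold change of 3.63 ± 0.39 in *Pkd1*-/- (adjusted p = 8.23e-07). *Twist2* was at 3 to 9 in Wt and 19 to 29 in *Pkd1*-/- (adjusted p = 0.000176). *Zeb2* was at 56 to 84 in Wt, 121 to 162 in *Pkd1*-/- and 85 to 118 in *Pkd2*-/-, with adjusted p of 2.52e-05 and 0.0039.

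**Figure D5:**
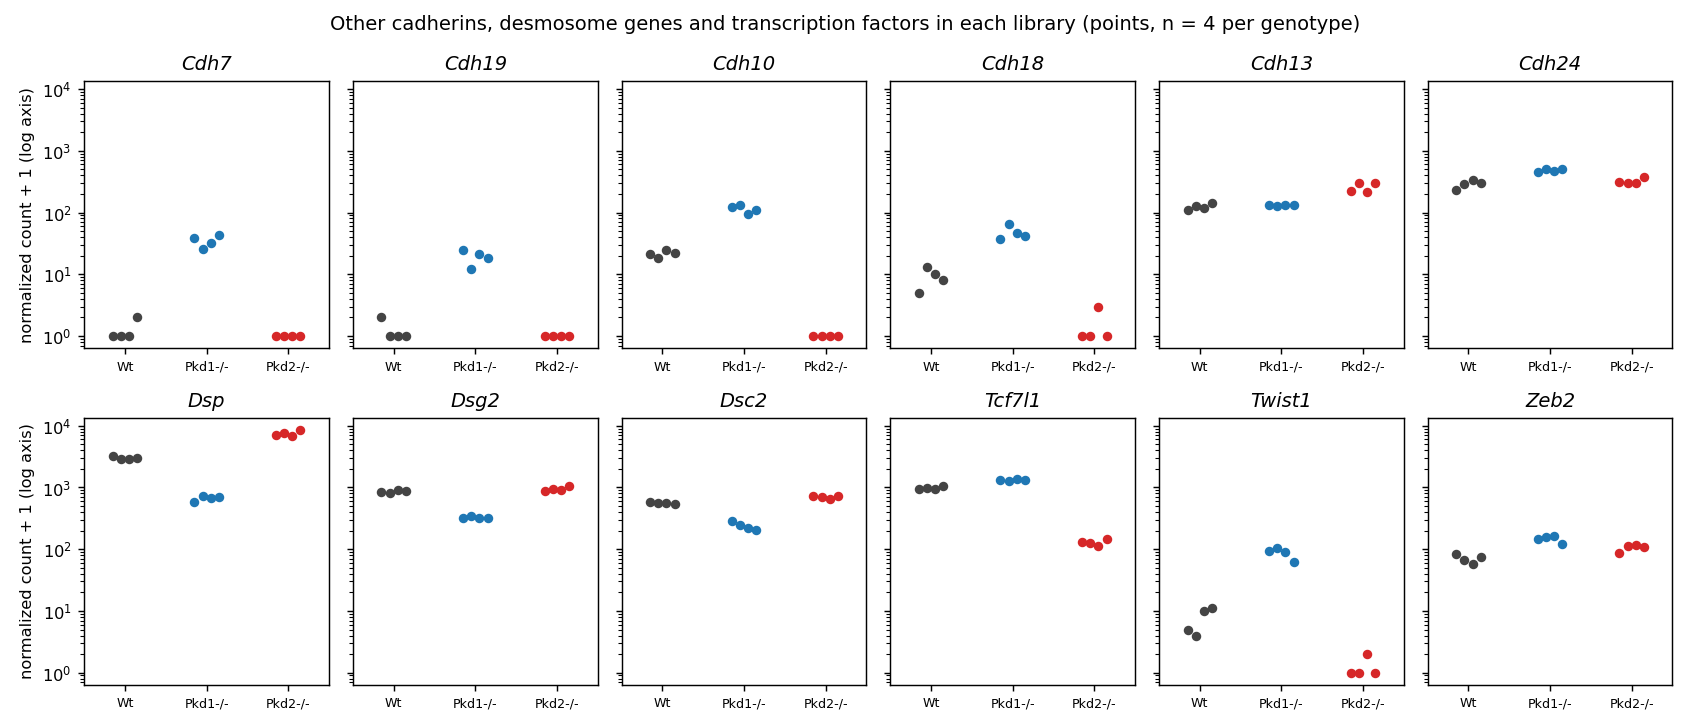
Normalized count plus 1 on a log axis in each library for 6 other cadherins (top) and for desmosome genes and transcription factors (bottom); points are libraries, 4 per genotype, and points at 1 are counts of 0. *Cdh10* is at 0 in all *Pkd2*-/- libraries and at 95 to 131 in *Pkd1*-/-, and *Dsp* goes down in *Pkd1*-/- and up in *Pkd2*-/-.

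Over the 12 libraries, the 3 genes whose pattern was most like that of *Cdh2* among 13703 genes averaging 10 or more normalized counts were *Myof* (Pearson r = 0.99), *Scd2* (0.985) and *Gpd2* (0.984). *Myof*, which encodes a membrane repair protein, was at 5082 ± 178 normalized counts in Wt, 9144 ± 666 in *Pkd1*-/- and 11432 ± 1076 in *Pkd2*-/-. The 3 genes most like *Cdh1* were *Lbr* (0.975), *Scaf8* (0.974) and *Kirrel* (0.972), a cell adhesion gene at 6025 ± 455, 6148 ± 607 and 8612 ± 878. These values are descriptions, since the libraries of a genotype share its mean. Reads could be split between members only where their transcripts share sequence: over 45 pairs of members the longest exact run in common was 34 bases, between *Cdh6* and *Jup*, and among the 15 pairs of cadherins it was 26 bases.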

How the data were processed

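RNA of 12 mIMCD3 libraries was trimmed with Trim Galore, aligned with HISAT2 to mm10 (GRCm38), counted per gene with HTSeq and normalized with DESeq2 by the authors. The deposited values are DESeq2-normalized counts rounded to whole numbers and are treated here as a score, not as raw counts, so that no count model was fitted. The strand setting is not given in the sources used here. Depth was estimated from gaps in the whole numbers, at 23200000 to 30300000 reads per library.

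The 18552 genes averaging 1 or more were tested with limma 3.58.1 (lmFit, eBayes with trend, two-sided) on log2(value + 1) over all 12 libraries, with Benjamini-Hochberg adjustment over all genes. A fold change on this scale understates changes of low genes. The code was tested on simulated data. The ratio of *Cdh1* to *Cdh2* was compared by two-sided exact permutation (scipy 1.17.1). Positions and exon lengths were taken from GENCODE M21. All 10 members were named, with, from each list and comparison with Wt, up to 4 genes of largest change (adjusted p under 0.05, log2 fold change of at least 1, mean 10 or more) and the 3 genes most like *Cdh1* and *Cdh2*. The members and lists were chosen with earlier results of these data known. Alternatives were other pseudocounts (0.5, 5), filters, scalings, a replicate block, 2 genotypes only and leaving out each library.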

Additional observations from a re-analysis of the deposited data

Results flagged for a closer look

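In 33 groups of 4 libraries (each member and the ratio of *Cdh1* to *Cdh2* in each genotype), 3 had a library far from its replicates by Dixon's test, which chance does in about 1 of 20. *Cdh6* was at 2554 normalized counts in *Pkd2*-/- replicate 4, beside 2092 to 2170 in the others. *Cdh11* was at 6 in *Pkd2*-/- replicate 2, beside 12 to 13. *Ctnna1* was at 15641 in Wt replicate 4, beside 17613 to 17959.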

How the results depend on the processing

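Of 477 alternative values of the 30 member log2 fold changes, 438 kept their direction and their side of the threshold, 31 lost the call, 7 gained it and 1 turned: *Ctnnb1* between the clones, not called, was -0.14 under quantile normalization (adjusted p = 0.0418). With the fold threshold added, 2 members passed in *Pkd1*-/-, 2 in *Pkd2*-/- and 1 between the clones. Leaving out 1 library gave 4 to 7, 6 to 9 and 7 changed members and 4316 to 4776, 7228 to 7616 and 8026 to 8269 changed genes, in the order *Pkd1*-/- against Wt, *Pkd2*-/- against Wt and *Pkd2*-/- against *Pkd1*-/-. In that order the log2 ratio of *Cdh1* to *Cdh2* then ran from -1.55 to -1.41, -1.85 to -1.70 and -0.35 to -0.24, with an exact permutation p of 0.0571, the smallest that 3 against 4 allow. Same-numbered libraries deviated together with r of -0.073 to 0.2, and 9 of 24 best matches fell on the same number. The 2 values over 0.1 were both between replicate 4 libraries, 0.2 for Wt and *Pkd2*-/- and 0.167 for *Pkd1*-/- and *Pkd2*-/-. The other same-numbered values were 0.094 or lower, and the numbers were not taken as pairs. With a replicate block the ratio differed by -1.48, -1.77 and -0.29, with p = 0.125 in an exact sign-flip permutation test, the smallest that 4 pairs allow, and 5322, 8048 and 8782 genes were called, beside 5020, 7852 and 8588. Depth limits *Cdh11* and the genes near 0, and 1 clone per knockout limits every comparison. The cause of each lost call was not tested.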
